A study of Mus musculus with 6 samples.

Results

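Primary macrophages grown from mouse bone marrow, which can turn into bone-resorbing osteoclasts, were kept for 1 day with RANKL and sodium acetate and compared with untreated cells of the same kind at day 0. RANKL is the cytokine that starts osteoclast formation, and acetate is the most abundant short-chain fatty acid made by gut bacteria. The comparison used 4 of the 6 RNA-seq libraries of the study: 2 of cells given RANKL with sodium acetate and taken at day 1, and 2 of untreated cells taken at day 0. The other 2 libraries, of cells given RANKL without acetate for 1 day, are quoted beside these values and mark which genes changed with RANKL and acetate only. The labels give no strain, genotype, age, sex or dose, and call the cells primary. No day 1 group without RANKL and no group given another sodium salt were analysed here, so the effects of RANKL, acetate, sodium and the day in culture on the difference from day 0 cannot be told apart. Of 45706 genes in the table, 12224 had enough counts to be tested, and all of these were taken as the members of the comparison.

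RANKL binds its receptor RANK on macrophage precursors and, through TRAF6, activates NF-kappaB and MAP kinase signalling, which raises FOS and then NFATc1, the factor that switches on the genes for cell fusion and for the digestion of bone. Precursors hold this programme back with repressors such as IRF8 and keep a macrophage programme of their own, including a weak autocrine type I interferon signal that restrains osteoclast formation. Acetate can be taken up by monocarboxylate transporters and turned into acetyl-CoA, the donor for histone acetylation and for the synthesis of fatty acids and sterols.

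The net state was a large departure from day 0 in both directions. Of the 12224 genes tested, 7419 (60.7%) were called different, 3699 of them (30.3%) higher with RANKL and acetate and 3720 (30.4%) lower. A gene was called at an adjusted p under 0.05 in edgeR's quasi-likelihood test, adjusted after Benjamini and Hochberg over all genes tested, and every adjusted p below comes from that test. At least 2-fold changes were fewer, with 898 genes (7.35%) higher and 1132 (9.26%) lower. The median log2 fold change of all genes tested was 0.0038. In 7402 of the 7419 called genes the 2 groups of libraries did not overlap (99.8%), against 9603 (78.6%) of all genes tested.

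Total gene-level counts were 10218460 and 10120498 in the RANKL with acetate libraries, 11254944 and 10790705 with RANKL, and 10619528 and 9997515 at day 0. No library stood apart: the chi-square of the counts per gene was 1.93 between the 2 libraries given RANKL and acetate and 2.15 between those of day 0, against 96.6 to 101 between these 2 groups. Between the 2 RANKL libraries it was 2.57. The labels do not say whether the libraries of a group came from separate cultures or animals, so p-values measure only the spread between these libraries, which may be technical. Levels are given per library, with replicate 1 first, as CPM, the count of a gene scaled to the library's total. Because this is bulk RNA, fewer cells of a type and less RNA per cell cannot be told apart.

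**Figure D1:**
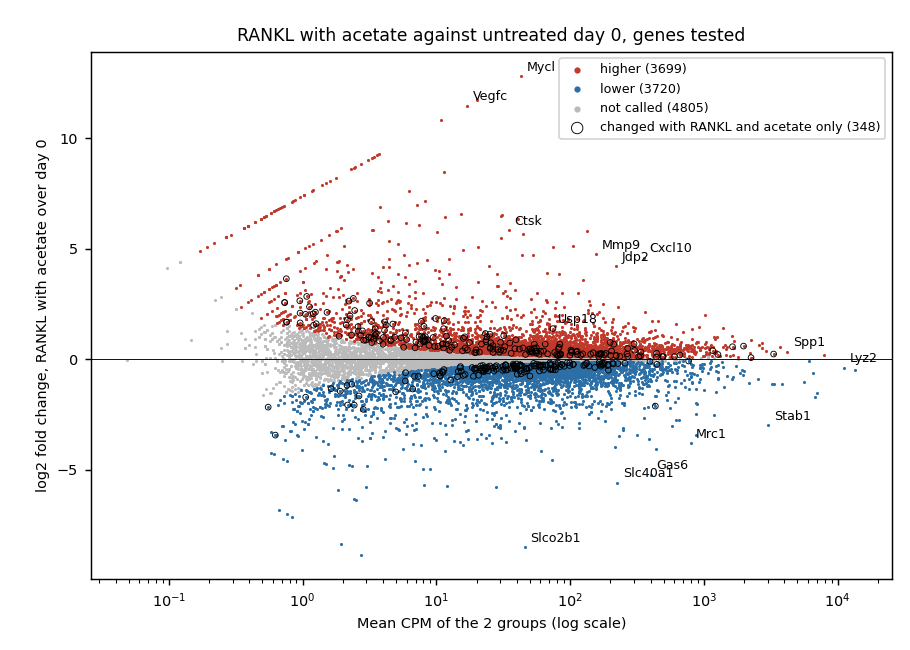
Each point is one of the 12224 genes tested. The x axis is the mean of the RANKL with acetate and day 0 levels in CPM (log scale) and the y axis the log2 fold change of RANKL with acetate over day 0. Red points were called higher, blue points lower and grey points not called, and black circles mark the 348 genes changed with RANKL and acetate only. The slanted rows of points at the upper left are genes with few or no counts at day 0, whose fitted fold changes are not bounds.

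The cells were macrophages by their defining markers in both groups, with less of that RNA after treatment. All 8 defining macrophage markers were detected and all 8 fell, with summed levels of 12320 and 12150 CPM with RANKL and acetate and 18560 and 18160 CPM at day 0. T and NK cell, erythroid, mast cell and dendritic cell markers summed to under 5 CPM in each of the 4 libraries compared, and none of their genes was tested. The 7 neutrophil markers, of which 6 were tested, summed to 142.4 and 137.6 CPM with RANKL and acetate, against 181.7 and 188.4 CPM at day 0. B cell markers summed to 4.07 and 4.88 CPM with RANKL and acetate, against 21.6 and 28.7 CPM at day 0, stromal markers to 11.2 and 12.3 against 6.24 and 5.97 CPM, endothelial markers to 26.2 and 21.5 against 28.7 and 29.3 CPM, and megakaryocyte markers to 18.1 and 18.3 against 17.4 and 17.7 CPM. Of the markers listed, Cd3d, Cd3e, Cd3g, Trac and Ncr1 (T and NK cells), Hbb-bs (erythroid), Mcpt4 and Fcer1a (mast cells), Cldn5 (endothelium) and Pdgfra and Alpl (stroma) had 0 counts in all 4 libraries. Most of the B cell sum was Ighm, with 3.2 and 4.1 CPM with RANKL and acetate against 20.0 and 27.5 CPM at day 0. The part of these cell types in the results was not tested.

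By TPM, which corrects for transcript length and so allows genes to be compared, the most abundant transcripts in the treated cells included those of ferritin, lysozyme and osteopontin. Ftl1 and Fth1, the ferritin subunits that store iron, averaged 21384 and 8064 TPM with RANKL and acetate, against 30313 and 16676 TPM at day 0. Lyz2, the lysozyme of myeloid cells, averaged 12947 TPM with RANKL and acetate, against 17174 TPM at day 0. Spp1, osteopontin, a secreted protein of macrophages and osteoclasts, reached 5519.6 TPM with RANKL and acetate, against 4389 TPM at day 0. The other genes among the 10 with the highest TPM were Eef1a1, mt-Co2, Tmsb4x, mt-Co1, mt-Atp8 and Rplp1.

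Transcription factors of the osteoclast programme were raised. Of 18 tested members of that list, 13 rose, 4 (Jun, Tfe3, Tfec and Nfatc2) fell and 1 (Jund) was not called, with a median log2 fold change of 1.70. Nfatc1, the factor that directs osteoclast differentiation (chr18:80606205-80713071 on GRCm38), had 232 and 214 CPM with RANKL and acetate, 529 and 518 CPM with RANKL and 49.2 and 44.7 CPM at day 0. The treated libraries were all above day 0, and those with acetate lay between the other 2 groups. Its log2 fold change over day 0 was 2.25 ± 0.06 (adjusted p = 9.5e-27). The difference between RANKL with acetate and RANKL was -1.23 ± 0.04 on the same scale (adjusted p = 1.1e-21). Values after ± are approximate SEs, the log2 fold change divided by the square root of the test's F statistic. For large changes they can be smaller than counting error alone, as for Ctsk, Mmp9, Dcstamp and Slco2b1 below. Jdp2, an AP-1 family factor, had 427 and 414 CPM with RANKL and acetate, 800.4 and 828 CPM with RANKL and 23.9 and 21.2 CPM at day 0, an 18.6-fold rise over day 0 (adjusted p = 1.3e-34). Fos, the AP-1 subunit upstream of Nfatc1, rose 7.95-fold, with 207 and 201 CPM against 26 and 25.3 CPM at day 0. Prdm1, a repressor that silences Irf8 and other macrophage genes, had 40.3 and 35 CPM with RANKL and acetate, 106 and 93.9 CPM with RANKL and 3.17 and 3.56 CPM at day 0. The MYC family moved as well. Myc had 192 and 201 CPM with RANKL and acetate, 201 and 201 CPM with RANKL and 54.9 and 59.1 CPM at day 0. Mycl reached 89.1 and 83.4 CPM with RANKL and acetate, against 0 counts at day 0, which is at least 565-fold more than the 3 counts over the group that a count of 0 allows.

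RANK signalling itself was mixed. Of 21 tested genes 7 rose, 10 fell and 4 were not called, with a median log2 fold change of -0.08. Over all genes tested, 30.3% were higher and 30.4% lower. Tnfrsf11a, which encodes RANK, had 170.4 and 175 CPM with RANKL and acetate, against 131 and 122 CPM at day 0. The NF-kappaB feedback inhibitor Nfkbia rose 5.75-fold to 306 and 293 CPM, against 53.7 and 50.4 CPM at day 0, and Nfkb2, the precursor of the non-canonical subunit p52, rose 4.28-fold. The genes lowered include the co-receptor Trem2, the co-receptor adaptors Tyrobp and Fcer1g, and the kinase Syk that these recruit. Trem2 had 171 and 166 CPM with RANKL and acetate, 110.1 and 117 CPM with RANKL and 486 and 483 CPM at day 0 (adjusted p = 2.0e-25). Oscar, another activating co-receptor, had 0 counts in all 4 libraries compared and 28 counts in the RANKL libraries.

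Defining genes for bone digestion rose, to levels well below those reached with RANKL. Of 16 tested genes of the osteoclast proteases and acid secretion list, 8 rose, 4 (Atp6v1c1, Atp6v1a, Ostm1 and Plekhm1) fell and 4 (Atp6v1b2, Clcn7, Slc4a2 and Snx10) were not called. The median log2 fold change was 0.18, and summed TPM were 1703 and 1691 with RANKL and acetate, 3526 and 3559 with RANKL and 1333 and 1344 at day 0. Ctsk, cathepsin K, the collagen-degrading protease of osteoclasts (chr3:95499256-95509362), had 68.4 and 68.4 CPM with RANKL and acetate, 335 and 328 CPM with RANKL and 0.891 and 1.47 CPM at day 0. The treated libraries did not overlap with day 0 or with each other, and the log2 fold change over day 0 was 5.85 ± 0.14 (adjusted p = 3.1e-27). Mmp9, a matrix metalloproteinase (chr2:164940780-164955850), had 313 and 292 CPM with RANKL and acetate, 1398 and 1403 CPM with RANKL and 11.5 and 10.7 CPM at day 0 (log2 fold change 4.77 ± 0.06, adjusted p = 1.1e-34). Acp5, tartrate-resistant acid phosphatase (chr9:22126727-22135711), had 161 and 145 CPM with RANKL and acetate, 526 and 536 CPM with RANKL and 10.1 and 11.3 CPM at day 0. In each of these 3 genes the RANKL with acetate libraries lay between the other groups. Atp6v0d2, a proton pump subunit that fusion also requires, rose 18.7-fold with RANKL and acetate, with 44.8 and 49 CPM against 2.77 and 2.2 CPM at day 0. Car2, carbonic anhydrase 2, which supplies protons, had 135 counts with RANKL and acetate and 2 at day 0, a ratio of counts per library total of 64.5 (95% counting interval 17.5 to 538).

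Of 14 tested fusion and attachment genes 9 rose, 3 (Cd81, Sh3pxd2a and Adam8) fell, and Itgb3 and Siglec15 were not called. Their summed TPM were 1764 and 1694 with RANKL and acetate, 1769 and 1723 with RANKL and 2048 and 2040 at day 0, so the sum was below day 0 while the median log2 fold change was 0.95. Against RANKL, 4 members were higher and 8 lower. Dcstamp, a membrane protein that cells need to fuse, had 14 and 18.9 CPM with RANKL and acetate, 57.7 and 54.7 CPM with RANKL and 0.891 and 0.523 CPM at day 0 (log2 fold change 4.51 ± 0.27, adjusted p = 2.8e-16). Ocstamp, its relative, had 337 counts with RANKL and acetate and 2 at day 0, a ratio of 161 (95% counting interval 44.3 to 1336). Scin, which severs actin filaments, reached 41.1 and 39.6 CPM with RANKL and acetate, against 0 counts at day 0, at least 264-fold higher by the same floor. Src, the kinase of the osteoclast attachment ring, rose 33.4-fold, with 38.6 and 40.3 CPM against 0.891 and 1.47 CPM at day 0 and 156 and 164 CPM with RANKL. Each of these 4 genes was above day 0 and below RANKL in both acetate libraries. Siglec15, an osteoclast surface lectin, had 5 counts with RANKL and acetate, 36 with RANKL and 0 at day 0. Itgb3, the integrin beta 3 chain, had 8.24 and 7.42 CPM with RANKL and acetate, against 8.91 and 10.7 CPM at day 0 (log2 fold change -0.32 ± 0.19, adjusted p = 0.14).

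**Figure D2:**
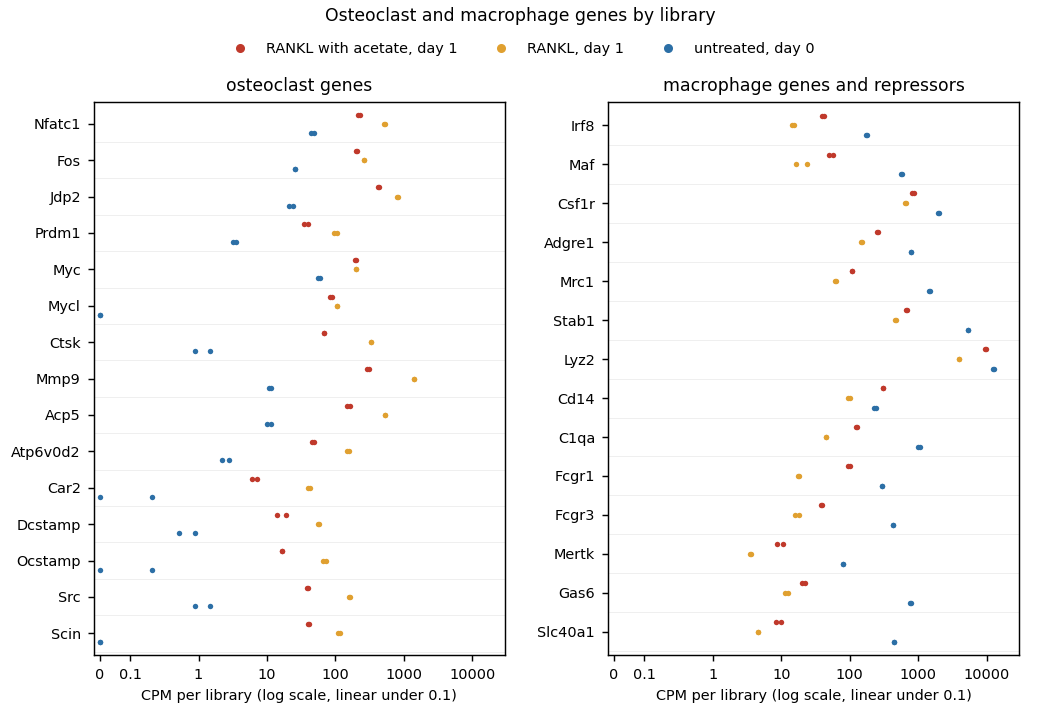
CPM of 15 osteoclast genes (left) and 14 macrophage genes or repressors (right) in each of the 6 libraries, 1 point per library, on an axis that is logarithmic above 0.1 CPM and linear below. Red points are RANKL with acetate, yellow points RANKL and blue points day 0. The genes drawn were picked from the lists. The osteoclast genes shown stand above day 0 with RANKL and acetate, and all the macrophage genes shown but Cd14 stand below it. Members of the osteoclast lists that fell and repressors that rose are not drawn.

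Repressors of osteoclast formation were lower in the net state. Of 12 tested, 8 fell, 2 (Klf4 and Cebpb) rose and 2 (Bcl6 and Zbtb20) were not called. Irf8, which blocks NFATc1 in precursors, had 42.2 and 39.7 CPM with RANKL and acetate, 14.3 and 15.2 CPM with RANKL and 178 and 172 CPM at day 0 (log2 fold change -2.10 ± 0.07, adjusted p = 5.7e-24). The acetate libraries lay below day 0 and above RANKL. Id1, an inhibitor of helix-loop-helix factors, fell to 12.1 and 14.7 CPM with RANKL and acetate, against 52 and 54.3 CPM at day 0, and Rbpj, the Notch effector, to 422 and 406 against 549 and 543 CPM. Cebpb, a basic leucine zipper factor of myeloid cells, had 99.5 and 82.5 CPM with RANKL and acetate, 43.7 and 42.2 CPM with RANKL and 66.9 and 59.8 CPM at day 0. It was thus above day 0 with RANKL and acetate (log2 fold change 0.52 ± 0.08, adjusted p = 5.9e-07) and below it with RANKL (-0.56 ± 0.09, adjusted p = 6.2e-07).

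Most genes of the macrophage itself fell. Of 23 tested genes of macrophage identity and receptors, 19 were lower, 3 (Ccr2, Marco and Clec4n) were not called, and 1 (Cd14) was higher. Summed TPM were 15770 and 15510 with RANKL and acetate and 23650 and 23370 at day 0. Csf1r, the M-CSF receptor on which these cells depend (chr18:61100598-61132149), had 860.1 and 825 CPM with RANKL and acetate, 634 and 662 CPM with RANKL and 2049 and 1968 CPM at day 0 (log2 fold change -1.25 ± 0.03, adjusted p = 3.5e-26). Mrc1, the mannose receptor, fell 14-fold, with 107 and 106 CPM with RANKL and acetate, 61.6 and 62.5 CPM with RANKL and 1464 and 1512 CPM at day 0. Fcgr1, the high-affinity IgG receptor, had 100.2 and 95.5 CPM with RANKL and acetate, 18.3 and 17.8 CPM with RANKL and 299 and 300.5 CPM at day 0. The acetate libraries of all 3 genes lay below day 0 and above RANKL. Cd14, the endotoxin co-receptor, went the other way and had 308 and 310.5 CPM with RANKL and acetate, 95.2 and 101 CPM with RANKL and 244 and 228 CPM at day 0 (log2 fold change over day 0 0.39 ± 0.05, adjusted p = 3.6e-09). Ccr2, the receptor for monocyte chemokines, had 44.3 and 37.5 CPM with RANKL and acetate, 11.8 and 12.2 CPM with RANKL and 41.4 and 44.8 CPM at day 0, and its difference from day 0 was -0.07 ± 0.10 on the log2 scale (95% interval -0.27 to 0.12, adjusted p = 0.53).

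The complement, scavenger and Toll-like receptor lists were also mostly lower. Of 11 complement genes 7 fell, C3 and Cfb rose, and Cd59a and Cr1l were not called. C1qa, a chain of the complement starter C1q, fell 8.12-fold, with 123 and 129 CPM with RANKL and acetate against 1053 and 997 CPM at day 0, while C3, the central component, rose 7.88-fold, with 104 and 97.9 against 12.2 and 13.5 CPM. Of 14 genes for scavenging and the clearance of dead cells, 10 fell, none rose and 4 (Axl, Mfge8, Marco and Cd5l) were not called. Gas6, the ligand that bridges dead cells to TAM receptors (chr8:13465374-13494490), fell 37.2-fold, with 20.0 and 22.1 CPM against 796 and 769 CPM at day 0. Its receptor Mertk fell 8.39-fold and the scavenger receptor Stab1 7.95-fold. Of 16 Toll-like receptor and endotoxin sensing genes 11 fell, Cd14 rose and 4 (Tlr2, Tlr3, Tlr9 and Myd88) were not called. Tlr4, the endotoxin receptor, had 42.9 and 38.2 CPM with RANKL and acetate, against 121 and 118 CPM at day 0, and Tlr13, a sensor of bacterial ribosomal RNA, had 95 and 99.8 against 414 and 408 CPM.

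The 15 genes with the largest rises at 10 CPM or more were Mycl, Scin, Vegfc, Zfp462, Htra1, Ocstamp, Zbtb32, Fgfr1, Met, Gstt1, Cav1, Akap6, Gfra2, Ctsk and Traf1. Vegfc, the lymphatic growth factor, reached 31.7 and 36.2 CPM with RANKL and acetate, against 0 counts at day 0, at least 222-fold higher, and Zfp462, a zinc finger protein, was at least 142-fold higher in the same way. Htra1, a secreted serine protease, had 464 counts with RANKL and acetate and 1 at day 0, a ratio of 444 (95% counting interval 79.2 to 17562). Met, the receptor for hepatocyte growth factor, had 62.5 and 57.8 CPM with RANKL and acetate, 86.8 and 79.8 CPM with RANKL and 0.99 and 0.314 CPM at day 0. Cav1, the caveolae coat protein, had 80.5 and 81.1 CPM with RANKL and acetate, 70.1 and 71.3 CPM with RANKL and 0.594 and 1.36 CPM at day 0. Traf1, a TNF receptor adaptor, rose 56.2-fold (adjusted p = 5.9e-34), with 262 and 265 CPM against 4.65 and 4.71 CPM at day 0. Genes were ranked here only if their RANKL with acetate and day 0 libraries did not overlap, so that separation follows from the choice. Zbtb32, a BTB zinc finger repressor, and Cav1 were higher with RANKL and acetate than with RANKL, by 0.56 ± 0.17 and 0.19 ± 0.07 on the log2 scale (adjusted p = 0.0088 and 0.042).

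The 15 largest falls were those of Slco2b1, Fcrls, Hpgd, Slc40a1, Gas6, Cd163, Abca9, Ctla2b, Slc46a3, Slc9a9, Ccl6, Ednrb, Rnase4, Rtn1 and Ang. Slco2b1, an organic anion transporter, had 0.388 and 0.0977 CPM with RANKL and acetate, against 95.4 and 88.1 CPM at day 0 (log2 fold change -8.49 ± 0.22, adjusted p = 2.3e-26). Hpgd, the enzyme that inactivates prostaglandins, had 0.679 and 0.195 CPM with RANKL and acetate, against 21.5 and 26 CPM at day 0. Slc40a1, ferroportin, the only known exporter of iron from cells, fell 48.3-fold, with 8.53 and 9.77 CPM against 446 and 438 CPM at day 0. Cd163, the haemoglobin scavenger receptor, had 0.291 and 0.781 CPM with RANKL and acetate, against 15.5 and 19 CPM at day 0. Each of these 4 was under 10 CPM in both treated libraries. Ang and Rnase4, a pair of ribonucleases, overlap in the annotation (chr14:51091150-51102009 and chr14:51091077-51106151), so their counts may divide the same reads and are uncertain.

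Interferon-stimulated genes were above day 0. Of 29 tested antiviral genes 27 rose, Ifi27l2a fell and Bst2 was not called, with a median log2 fold change of 0.68 and summed TPM of 3713 and 3775 with RANKL and acetate, 2072 and 2096 with RANKL and 2955 and 2987 at day 0. All 29 were higher with RANKL and acetate than with RANKL. Ifit1, which binds viral RNA, had 144 and 139 CPM with RANKL and acetate, 52.6 and 48.7 CPM with RANKL and 43.3 and 43.6 CPM at day 0 (log2 fold change over day 0 1.70 ± 0.07, adjusted p = 3.0e-21). Isg15, a ubiquitin-like protein, had 153 and 154 CPM with RANKL and acetate, 70.2 and 72.5 CPM with RANKL and 49.7 and 51.5 CPM at day 0 (log2 fold change 1.60 ± 0.06, adjusted p = 1.9e-21). Rsad2, viperin, had 241 and 243 CPM with RANKL and acetate, 70.4 and 57.9 CPM with RANKL and 84.6 and 94.3 CPM at day 0. In all 3 the acetate libraries were the highest of the 6. Usp18, which removes ISG15 and dampens interferon signalling, had 111 and 105 CPM with RANKL and acetate, 37.8 and 43.1 CPM with RANKL and 41.8 and 40.4 CPM at day 0. Mx1, a dynamin-like antiviral GTPase, had 46.3 and 41.4 CPM with RANKL and acetate, 8.32 and 8.16 CPM with RANKL and 37.9 and 32.8 CPM at day 0. Mx1 was therefore just above day 0 with RANKL and acetate (log2 fold change 0.31 ± 0.10, adjusted p = 0.0082) and below it with RANKL (-2.10 ± 0.13, adjusted p = 3.7e-16). Gene pairs such as Ifit3 and Ifit3b or Oas1a and Oas1g are close copies whose reads the authors' counting could split, so their single values are uncertain.

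**Figure D3:**
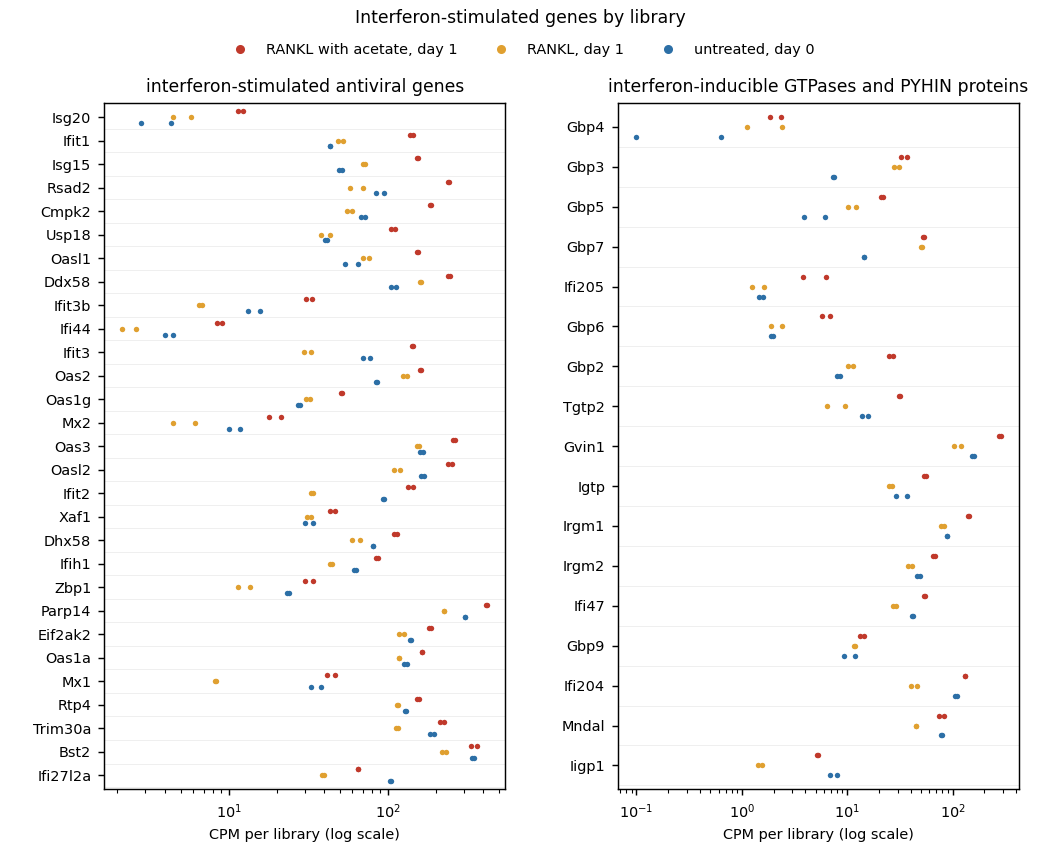
CPM of the 29 tested interferon-stimulated antiviral genes (left) and 17 tested interferon-inducible GTPases and PYHIN proteins (right) in each library, 1 point per library, on log axes, ordered by the log2 fold change over day 0. Red points are RANKL with acetate, yellow points RANKL and blue points day 0. The red points of most genes lie to the right of both other groups, and those of Ifi27l2a lie to the left of day 0.

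A further list held interferon-inducible GTPases, which attack the vacuoles of intracellular microbes, with 3 nucleic acid-binding PYHIN proteins, Mndal, Ifi204 and Ifi205, among its tested members: 15 of 17 rose, none fell, and Iigp1 and Mndal were not called, with a median log2 fold change of 0.84. Gbp2 had 27.4 and 24.9 CPM with RANKL and acetate, 10.2 and 11.3 CPM with RANKL and 7.92 and 8.58 CPM at day 0 (log2 fold change 1.67 ± 0.15, adjusted p = 7.7e-12). Gbp7 had 52.6 and 53.2 CPM with RANKL and acetate, 50.5 and 51.5 CPM with RANKL and 14.4 and 14.3 CPM at day 0. Gbp2 was thus higher with acetate than without it (adjusted p = 2.7e-09), whereas for Gbp7 that difference was 0.05 ± 0.08 on the log2 scale (adjusted p = 0.67). Irgm1, a regulator of the other GTPases, had 142 and 141 CPM with RANKL and acetate, 82 and 76.8 CPM with RANKL and 88.5 and 89 CPM at day 0.

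These genes are known to be driven through the interferon-stimulated response element, which ISGF3 and interferon regulatory factors bind. As examples that hold a match, the 150 bases before the annotated start of 6 raised genes are printed. They run 5′ to 3′ on the gene's strand, from RefSeq on GRCm38.p6, and do not stand for all raised genes. Capitals mark each match to GAAANNGAAA on either strand (TTTCNNTTTC when read on the other strand); matches that overlap form 1 run.
Isg15 chr4:156200819-156200968 (-): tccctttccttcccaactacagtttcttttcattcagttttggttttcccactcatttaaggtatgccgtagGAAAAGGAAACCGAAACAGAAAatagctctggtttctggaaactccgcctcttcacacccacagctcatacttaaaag
Ifit1 chr19:34640739-34640888 (+): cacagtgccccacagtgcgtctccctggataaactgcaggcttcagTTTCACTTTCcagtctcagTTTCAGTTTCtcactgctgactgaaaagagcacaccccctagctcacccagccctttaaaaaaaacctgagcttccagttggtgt
Oas1g chr5:120887614-120887763 (-): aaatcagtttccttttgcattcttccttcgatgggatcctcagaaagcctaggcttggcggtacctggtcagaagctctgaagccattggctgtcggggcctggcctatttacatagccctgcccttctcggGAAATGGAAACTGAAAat
Oas3 chr5:120777660-120777809 (-): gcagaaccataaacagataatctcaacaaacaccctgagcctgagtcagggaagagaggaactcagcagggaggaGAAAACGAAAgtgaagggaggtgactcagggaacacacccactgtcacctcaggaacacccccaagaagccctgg
Gbp2 chr3:142620513-142620662 (+): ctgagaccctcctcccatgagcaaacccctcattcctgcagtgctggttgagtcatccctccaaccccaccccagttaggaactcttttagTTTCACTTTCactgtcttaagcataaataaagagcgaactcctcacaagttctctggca
Irgm1 chr11:48871421-48871570 (-): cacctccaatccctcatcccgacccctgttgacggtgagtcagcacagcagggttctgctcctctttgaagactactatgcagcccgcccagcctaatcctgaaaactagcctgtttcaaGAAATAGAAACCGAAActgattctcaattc
In windows from 250 bases before to 50 after the start, searched on both strands, the motif was found in 13 of the 21 antiviral genes with a window (61.9%) and in 11 of the 12 genes with a window on the list of GTPases and PYHIN proteins (91.7%). It was found in 3.99% of all 27025 genes with a window and in 4.0% of those tested. A match is a description of the letters and does not show that a factor was bound.

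Of 18 tested factors and receptors of the interferon pathway, 5 rose, 6 fell and 7 were not called. These shares are near those of all genes tested, 30.3% higher and 30.4% lower. Irf7, the amplifier of type I interferon, had 235 and 226 CPM with RANKL and acetate, 111 and 111 CPM with RANKL and 119 and 128 CPM at day 0 (log2 fold change over day 0 0.91 ± 0.05, adjusted p = 3.5e-17). It was highest with acetate. Stat2, a subunit of ISGF3, had 137 and 150.1 CPM with RANKL and acetate, 55 and 54.1 CPM with RANKL and 155 and 153 CPM at day 0, a log2 difference from day 0 of -0.10 ± 0.05 (95% interval -0.21 to 0.01, adjusted p = 0.12). The feedback inhibitors Socs1 and Socs3 rose with or without acetate: Socs3 had 23.5 and 23.8 CPM with RANKL and acetate, 21.1 and 25.2 CPM with RANKL and 0.891 and 1.15 CPM at day 0. Ifnb1, the interferon beta gene, had too few counts to be tested. Among 17 class I presentation and immunoproteasome genes, 12 rose, 4 (Psmb10, Psme1, Erap1 and H2-M3) fell and Psmb9 was not called. H2-K1, a class I heavy chain, had 934 and 951 CPM with RANKL and acetate, against 639 and 616 CPM at day 0, and Tap1, a peptide transporter subunit, had 115 and 117 against 84.8 and 89.2 CPM. Of 11 class II presentation genes, the costimulatory ligand Cd80 rose, 4 (H2-DMa, H2-DMb1, Ctss and Cd40) fell and 6 were not called.

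Chemokines split. Of 17 tested, 5 (Ccl5, Cxcl9, Cxcl10, Cxcl11 and Cxcl16) rose, 10 fell, and Ccl22 and Ccrl2 were not called. Cxcl10, an interferon-induced T cell attractant (chr5:92346638-92348889), had 678 and 683 CPM with RANKL and acetate, 123 and 122 CPM with RANKL and 27.6 and 28.5 CPM at day 0. It was 24.3-fold above day 0 (log2 fold change 4.60 ± 0.05, adjusted p = 1.3e-36), and higher in both acetate libraries than in any other. Cxcl11, another ligand of the same receptor, had 8.14 and 8.99 CPM with RANKL and acetate, 2.23 and 1.97 CPM with RANKL and 0.099 and 0.105 CPM at day 0. Among the monocyte attractants, Ccl2 had 553 and 508 CPM with RANKL and acetate, 127 and 121 CPM with RANKL and 1107 and 1107 CPM at day 0 (log2 fold change -1.06 ± 0.04, adjusted p = 3.1e-22). Ccl12 had 62.6 and 66 CPM with RANKL and acetate, 7.89 and 9.42 CPM with RANKL and 72.1 and 80.8 CPM at day 0. Both stood below day 0 and above RANKL. Ccl6 fell 16.7-fold, with 49.6 and 48.8 CPM against 816 and 828 CPM at day 0. Of 7 chemokine receptors tested, 2 (Cx3cr1 and Cxcr3) fell, none rose and 5 were not called. The share called was 28.6%, against 60.7% of all genes tested. The call of Cxcr3 was lost without replicate 2 of either group. Ccr1, which rose with RANKL, had 25.3 and 24 CPM with RANKL and acetate, 61.6 and 62 CPM with RANKL and 21.1 and 25.7 CPM at day 0.

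Of 11 tested inflammatory cytokines and mediators 6 rose, 3 (Lcn2, Tnfsf9 and Cd40) fell, and Tnf and Il18 were not called. Irg1, the enzyme that makes itaconate, had 71.7 and 68.2 CPM with RANKL and acetate, 11.1 and 10.4 CPM with RANKL and 8.22 and 7.64 CPM at day 0, 8.8-fold above day 0 (log2 fold change 3.14 ± 0.12, adjusted p = 5.3e-22). Il1rn, the interleukin 1 receptor antagonist, rose 2.45-fold over day 0, and Ptgs2, cyclo-oxygenase 2, 7.93-fold at 3.39 and 5.66 CPM. Nos2, inducible nitric oxide synthase, had 48 counts with RANKL and acetate and 2 at day 0, a ratio of 22.9 (95% counting interval 6.02 to 195). Tnf had 28.3 and 28.4 CPM with RANKL and acetate, 10.1 and 12.6 CPM with RANKL and 31.1 and 32.9 CPM at day 0 (log2 difference from day 0 -0.17 ± 0.11, adjusted p = 0.18). Il1b, Il1a, Il6, Il10, Il12b, Il27 and Saa3 had too few counts to be tested.

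Lipid synthesis was lower throughout. All 23 tested genes of cholesterol biosynthesis and its control fell, with a median log2 fold change of -1.38 and summed TPM of 564 and 552 with RANKL and acetate, 465.5 and 450.4 with RANKL and 1668 and 1693 at day 0. Insig1, the sterol-sensing retention protein (chr5:28071363-28078662), had 28.6 and 27.6 CPM with RANKL and acetate, 21.3 and 19.6 CPM with RANKL and 209 and 202 CPM at day 0 (log2 fold change -2.87 ± 0.07, adjusted p = 2.1e-27). Hmgcs1, which condenses acetyl-CoA into the pathway, had 40.0 and 43.9 CPM with RANKL and acetate, 32.5 and 34.3 CPM with RANKL and 162 and 157 CPM at day 0. Both genes were far below day 0 in the treated libraries. The motif TCACNCCAC of sterol response elements was found in the promoter window of 1 of the 16 cholesterol genes with a window (6.25%, Hmgcs1) and in 1.44% of all genes. All 12 tested genes of fatty acid synthesis and desaturation fell too, with a median of -0.65. Scd2, a stearoyl-CoA desaturase, fell 4.67-fold, with 134 and 118 CPM against 584 and 597 CPM at day 0, whereas Acaca, acetyl-CoA carboxylase, fell by only 0.14 ± 0.06 on the log2 scale (adjusted p = 0.042). Of 10 LXR targets and efflux genes, 6 fell and 4 (Abcg1, Nr1h3, Pltp and Lpl) rose. Abca1, the cholesterol exporter, had 36.4 and 37.1 CPM with RANKL and acetate, against 148 and 136 CPM at day 0, while Abcg1, the other exporter, had 77.5 and 73.4 against 33.9 and 36 CPM. Lpl, lipoprotein lipase, rose 1.54-fold.

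Both synthetases that turn acetate into acetyl-CoA were lower. Of 16 tested genes of acetate and acetyl-CoA metabolism, 9 fell, 4 (Pdha1, Pdhb, Dlat and Slc13a3) rose and 3 were not called. Acss1, the mitochondrial acetyl-CoA synthetase, had 3.39 and 3.61 CPM with RANKL and acetate, 3.0 and 3.59 CPM with RANKL and 45.6 and 51.8 CPM at day 0 (log2 fold change -3.79 ± 0.16, adjusted p = 1.1e-20). Acss2, its cytosolic and nuclear counterpart, had 6.59 and 6.25 CPM with RANKL and acetate, 4.89 and 5.2 CPM with RANKL and 15 and 16 CPM at day 0. The difference between RANKL with acetate and RANKL was 0.09 ± 0.25 for Acss1 (adjusted p = 0.83) and 0.35 ± 0.21 for Acss2 (adjusted p = 0.22) on the log2 scale. Acly, which makes acetyl-CoA from citrate, had 234 and 243 CPM with RANKL and acetate, against 348 and 353 CPM at day 0. Of the transporters and receptors, Slc16a1, a monocarboxylate carrier, rose 3.28-fold, with 90.6 and 92.9 CPM against 26.5 and 29.4 CPM at day 0, and Slc16a3, its lactate-exporting relative, 2.21-fold. Gpr84, a receptor for medium-chain fatty acids, had 42.5 and 35.2 CPM with RANKL and acetate, 20.7 and 23 CPM with RANKL and 27 and 25.2 CPM at day 0. The acetate receptors Ffar2 and Ffar3 had too few counts to be tested.

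Of 30 histone acetylation enzymes and readers 9 were higher, 8 lower and 13 not called. These shares are near those of all genes tested, 30.3% higher and 30.4% lower. Hdac9, a class IIa deacetylase, had 6.79 and 6.64 CPM with RANKL and acetate, 2.23 and 2.51 CPM with RANKL and 49.6 and 56.4 CPM at day 0 (log2 fold change -2.98 ± 0.14, adjusted p = 1.3e-19). Ncoa3, a coactivator, fell 1.84-fold, Hdac2 rose 1.54-fold and the acetyl-lysine reader Brd2 1.35-fold. Ep300, a major histone acetyltransferase, had 141 and 134 CPM with RANKL and acetate, against 144 and 147 CPM at day 0 (log2 difference -0.08 ± 0.05, adjusted p = 0.18).

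**Figure D4:**
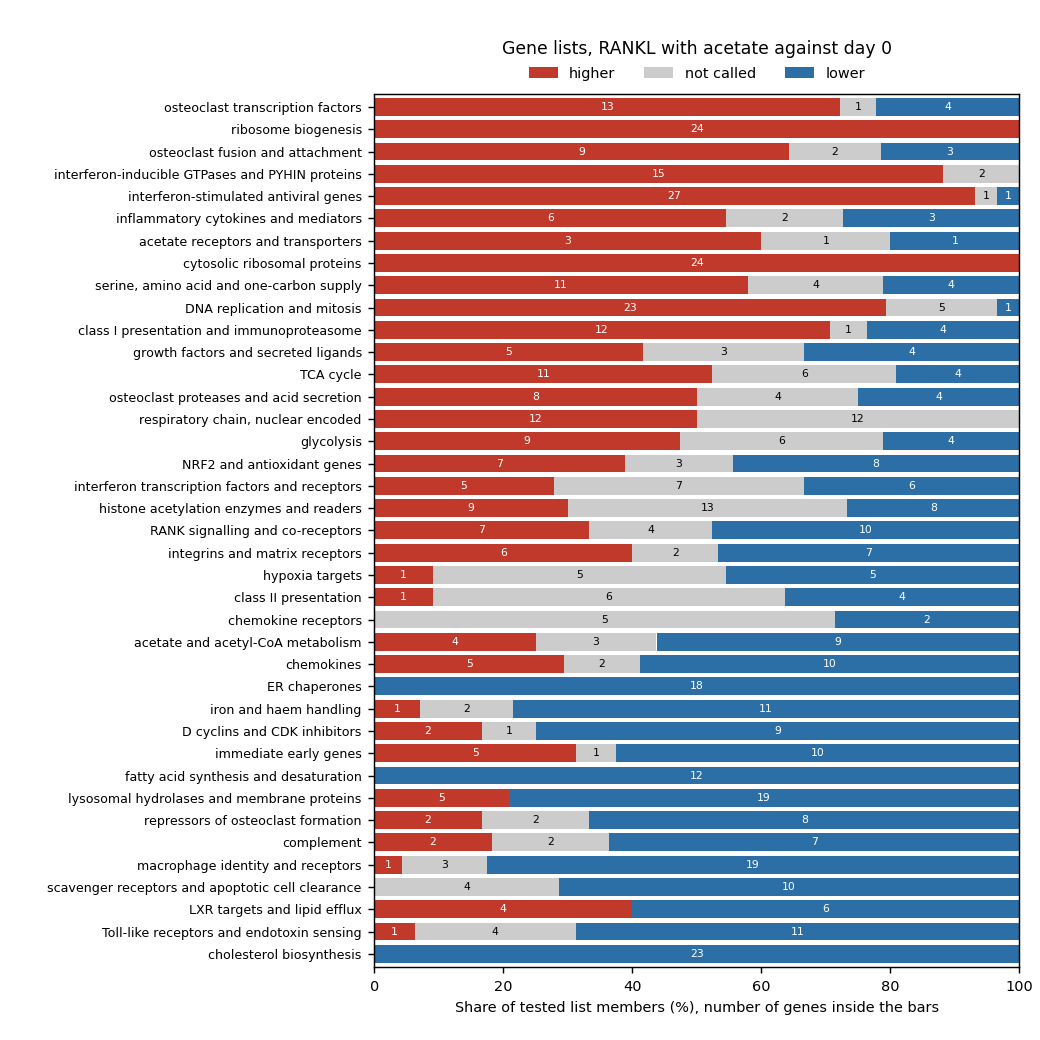
Share of the tested members of 39 gene lists that were called higher (red), not called (grey) or called lower (blue) with RANKL and acetate against day 0, with the number of genes inside the bars. Lists run from the highest median log2 fold change at the top, osteoclast transcription factors, to the lowest at the bottom, cholesterol biosynthesis. Over all genes tested, 30.3% were higher and 30.4% lower.

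Genes of energy metabolism more often rose than fell, with no rise of 2-fold or more. Over all genes tested, 30.3% were higher and 30.4% lower. Of 19 glycolysis genes 9 rose, 4 (Hk3, Gpi1, Pfkfb3 and Aldoc) fell and 6 were not called, with a median log2 fold change of 0.06. Eno1, enolase, rose 1.8-fold, with 2166 and 2145 CPM against 1227 and 1166 CPM at day 0, Ldha, lactate dehydrogenase, rose 1.7-fold, and Hk3, the hexokinase of myeloid cells, fell 6.26-fold, with 96 and 99.3 against 639.6 and 583 CPM. Of 21 genes of the citrate cycle 11 rose, 4 (Aco1, Idh1, Ogdh and Mdh1) fell and 6 were not called. Idh3a, which drives the cycle forward, rose 1.67-fold, while cytosolic Idh1 fell 2.07-fold. Of 24 nuclear genes of the respiratory chain 12 rose, none fell and 12 were not called, and the largest rise, of Cycs, cytochrome c, was 1.47-fold.

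Genes for making ribosomes rose together. All 24 tested ribosome biogenesis genes were higher, with a median log2 fold change of 1.14 and summed TPM of 5750 and 5661 with RANKL and acetate, 6739 and 6671 with RANKL and 2421 and 2578 at day 0. Npm1, nucleophosmin, had 1364 and 1305 CPM with RANKL and acetate, 1586 and 1586 CPM with RANKL and 473 and 508 CPM at day 0 (log2 fold change 1.44 ± 0.04, adjusted p = 2.9e-27). Ncl, nucleolin, rose 2.64-fold and Dkc1, dyskerin, 2.92-fold. The E-box CACGTG, a motif that MYC can bind, was found in the promoter window of 5 of the 20 biogenesis genes with a window (25%). It was found in 8.09% of all genes and in 12% of those tested. Binding was not tested. All 24 listed cytosolic ribosomal protein genes rose as well, by a median of 0.50, for example Rps6 with 1388 and 1373 CPM with RANKL and acetate against 872 and 897 CPM at day 0. Processed copies of such genes can share reads with them, which makes the division between parent and copy uncertain. In serine, amino acid and one-carbon supply 11 of 19 rose, 4 (Slc3a2, Slc1a4, Ddit3 and Sesn2) fell and 4 were not called. Shmt2, mitochondrial serine hydroxymethyltransferase, rose 2.31-fold, and Slc7a5, an amino acid transporter, 2.03-fold, while its heavy chain Slc3a2 fell 2.15-fold.

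Cell cycle genes were slightly higher. Of 29 genes of DNA replication and mitosis 23 rose, Pcna fell and 5 (Tyms, Mki67, Ccnb2, Plk1 and E2f1) were not called, with a median log2 fold change of 0.26. Bub1, a spindle checkpoint kinase, rose 1.64-fold, and Mki67, the proliferation marker, had 759 and 729.9 CPM with RANKL and acetate, against 713 and 729.5 CPM at day 0 (log2 difference 0.05 ± 0.04, adjusted p = 0.29). Of 12 D cyclins, their kinases and the inhibitors, 9 fell, Cdk4 and Cdk6 rose and Cdkn1c was not called. Ccnd1, cyclin D1, had 857 and 864 CPM with RANKL and acetate, 602 and 612 CPM with RANKL and 1108 and 1138 CPM at day 0. Cdkn1a, the p21 inhibitor, fell 1.81-fold, and Cdkn2b, the p15 inhibitor, had 1.16 and 0.879 CPM with RANKL and acetate, 3.43 and 3.59 CPM with RANKL and 11.4 and 10.4 CPM at day 0. Cdkn2b was lower with acetate than without it, a log2 difference of -1.77 ± 0.35 (adjusted p = 1.4e-04).

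The secretory and lysosomal apparatus was lower. All 18 endoplasmic reticulum chaperone and quality control genes fell, with a median log2 fold change of -0.61. Hspa5, the chaperone BiP, had 1451 and 1492 CPM with RANKL and acetate, 1123 and 1134 CPM with RANKL and 2259.5 and 2254 CPM at day 0 (log2 fold change -0.62 ± 0.03, adjusted p = 3.6e-19). Of 24 lysosomal genes 19 fell and 5 (Ctsl, Ctsz, Npc2, Cd63 and Gpnmb) rose. The aspartic protease Ctsd had 3186 and 3208 CPM with RANKL and acetate, 2243 and 2314 CPM with RANKL and 10306 and 10259 CPM at day 0 (log2 fold change -1.69 ± 0.02, adjusted p = 2.6e-34). Lgmn, legumain, fell 4.01-fold and Ctsb, cathepsin B, 2.87-fold. Ctsl, cathepsin L, had 2464 and 2439 CPM with RANKL and acetate, 1505 and 1518 CPM with RANKL and 1957 and 2019.8 CPM at day 0, and so was above day 0 with acetate (log2 fold change 0.30 ± 0.03) and below it without (-0.40 ± 0.03, adjusted p = 1.8e-14).

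Iron, redox and stress genes followed the fall of macrophage genes in part. Of 14 iron and haem genes 11 fell, Slc11a2, an iron importer, rose and Ncoa4 and Ireb2 were not called. Hmox1, which breaks down haem, had 167 and 151 CPM with RANKL and acetate, 85.6 and 89.4 CPM with RANKL and 1095 and 1063 CPM at day 0 (log2 fold change -2.77 ± 0.04, adjusted p = 1.2e-32). Among 18 NRF2 and antioxidant genes 7 rose, 8 fell and 3 were not called: Sod2, the mitochondrial superoxide dismutase, rose 1.63-fold, while Cat, catalase, fell 1.98-fold. Of 11 hypoxia targets Higd1a rose, 5 fell and 5 were not called (the call of Higd1a was lost without RANKL and acetate replicate 1, either RANKL library or day 0 replicate 1), and Vegfa had 13.6 and 12.5 CPM with RANKL and acetate, against 11.3 and 16.7 CPM at day 0 (adjusted p = 0.63). Of 16 immediate early genes 10 fell, 5 (Egr2, Dusp1, Dusp2, Dusp4 and Dusp5) rose and Ier2 was not called. Dusp6, the ERK phosphatase, had 46.7 and 44.8 CPM with RANKL and acetate, 12.9 and 14 CPM with RANKL and 317 and 316 CPM at day 0, 6.91-fold below day 0 with acetate. Atf3, a stress-induced factor, fell 4.94-fold.

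Integrins and secreted factors changed by member. Of 15 integrins and matrix receptors 6 rose, 7 fell, and Itga4 and Itgb3 were not called. Itgb7 rose 6.6-fold, with 87.4 and 91.2 CPM with RANKL and acetate against 13.6 and 13.5 CPM at day 0, and Itga5, the fibronectin receptor chain, 2.25-fold. Itgav, the vitronectin receptor chain of osteoclasts, had 239.8 and 238 CPM with RANKL and acetate, 419 and 395 CPM with RANKL and 178 and 179 CPM at day 0 (log2 fold change 0.42 ± 0.04, adjusted p = 5.2e-10). Of 12 tested growth factors and secreted ligands 5 (Vegfc, Pgf, Pdgfa, Pdgfb and Sema4d) rose, 4 (Vegfb, Igf1, Tgfb1 and Bmp2) fell and 3 (Vegfa, Hbegf and Csf1) were not called. Pgf, placental growth factor, had 155 counts with RANKL and acetate, 542 with RANKL and 1 at day 0, and Sema4d, the semaphorin by which osteoclasts hold back bone formation, rose 4.47-fold over day 0. Igf1, insulin-like growth factor 1, had 222 and 223 CPM with RANKL and acetate, 55.5 and 60.7 CPM with RANKL and 408 and 422 CPM at day 0.

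A set of 348 genes (2.85% of those tested) changed with RANKL and acetate only, that is, was called different from day 0 with RANKL and acetate, was not called different from day 0 with RANKL, and was called different between the 2 treatments. Between RANKL and day 0, 66.3% of all genes tested were called, and between RANKL with acetate and RANKL, 30.4%. Of the 348, 193 (1.58%) were higher than day 0 and 155 (1.27%) lower, and 56 and 14 of them by at least 2-fold. The median log2 fold change was 0.65 among the higher genes, against 0.55 among all 3699 genes called higher, and -0.38 among the lower genes, against -0.66 among all 3720 called lower. Not being called with RANKL is not the same as equality with day 0. The difference between RANKL and day 0 ranged from -1.71 to 1.84 on the log2 scale among the higher genes and from -0.66 to 0.59 among the lower. In place of not being called with RANKL, the 95% interval of the RANKL difference was then required to lie within 1.2-fold of day 0. That gave 178 genes, 150 of them shared with the 348. With DESeq2 in place of edgeR 204 genes met the first rule. Gpr84, a rise of 0.57 ± 0.11 on the log2 scale over day 0, just missed the threshold of 0.05 for RANKL against day 0.

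Among the genes of the set that rose, the 12 with the largest rises at 10 CPM or more were Fabp4, Ly6a, Isg20, Klra2, Usp18, Ppfibp2, Rps6-ps4, Rpl23a-ps3, Oas1b, Rpl3-ps1, Rpl10a-ps1 and Mtmr11. Fabp4, a lipid chaperone of macrophages and fat cells (chr3:10204088-10208576), had 15.9 and 14.9 CPM with RANKL and acetate, 5.57 and 4.48 CPM with RANKL and 3.56 and 5.02 CPM at day 0 (log2 fold change over day 0 1.85 ± 0.20, adjusted p = 9.9e-10). Ly6a, the surface protein Sca-1 (chr15:74994877-74998031), had 17.8 and 17.5 CPM with RANKL and acetate, 4.37 and 4.22 CPM with RANKL and 4.65 and 5.86 CPM at day 0 (log2 fold change 1.75 ± 0.18, adjusted p = 3.3e-10). Isg20, an RNA-degrading antiviral exonuclease, had 11.4 and 12.3 CPM with RANKL and acetate, 5.83 and 4.48 CPM with RANKL and 4.36 and 2.83 CPM at day 0. The acetate libraries stood above the other 4 in each of these, which the rule of the set largely fixes. Klra2, a lectin-like receptor of the Ly49 family, rose 2.81-fold and Usp18 2.62-fold over day 0.

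Other genes of the set were picked after their values were seen, for what they are known to do. Besides Isg20 and Usp18, the antiviral list held Oas1g, Oas3 and Xaf1 in the set, and Oas1b belonged to it as well. Oas3, which makes the activator of RNase L, had 265 and 258 CPM with RANKL and acetate, 153 and 157 CPM with RANKL and 159 and 167 CPM at day 0 (log2 fold change over day 0 0.68 ± 0.05, adjusted p = 9.5e-15). Slfn5, a nuclear protein of the Schlafen family, had 254 and 248 CPM with RANKL and acetate, 143 and 145 CPM with RANKL and 148 and 148 CPM at day 0. RANKL and day 0 were nearly level in both, which the rule of the set favours. Pparg, the lipid-sensing nuclear receptor that controls Fabp4, had 21.1 and 23.3 CPM with RANKL and acetate, 13.4 and 12.3 CPM with RANKL and 12.5 and 13.8 CPM at day 0 (log2 fold change 0.76 ± 0.14, adjusted p = 1.5e-05). Sema4a, a semaphorin, had 28 and 33 CPM with RANKL and acetate, 17.1 and 17.2 CPM with RANKL and 17.5 and 15.5 CPM at day 0, and Clec5a, an activating lectin receptor of myeloid cells, rose 1.61-fold. Adam17, the protease that sheds TNF and other membrane proteins, rose 1.33-fold, with 346 and 346 CPM with RANKL and acetate against 261 and 261 CPM at day 0. Cxcl9, an attractant of T cells, was low throughout, with 2.04 and 1.37 CPM with RANKL and acetate, 0.514 and 0.538 CPM with RANKL and 0.594 and 0.209 CPM at day 0. Smaller rises in the set include those of the glycolytic enzymes Pkm and Aldoa, 1.18-fold and 1.16-fold, and of the deacetylase Hdac1, 1.19-fold. In the promoter windows of the protein-coding higher genes, GAAANNGAAA was found in 11 of 114 (9.65%), against 4.0% of the genes tested.

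**Figure D5:**
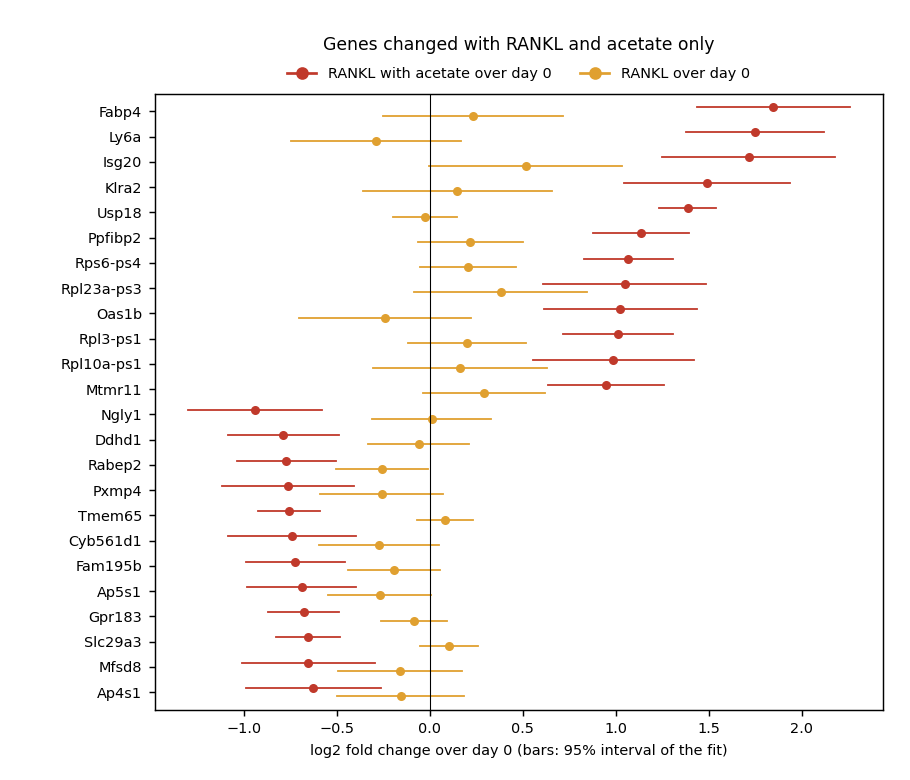
Log2 fold change with its 95% interval for the 12 largest rises and 12 largest falls among the genes changed with RANKL and acetate only, at 10 CPM or more in 1 group. Red points are RANKL with acetate over day 0 and yellow points RANKL over day 0. The genes were chosen as called for the red comparison and not called for the yellow one. Red intervals that exclude 0 and yellow intervals that include it thus largely follow from the choice. Only the yellow interval of Rabep2 excludes 0.

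The falls in the set were shallower. The 12 largest at 10 CPM or more were those of Ngly1, Ddhd1, Rabep2, Pxmp4, Tmem65, Cyb561d1, Fam195b, Ap5s1, Gpr183, Slc29a3, Mfsd8 and Ap4s1. Tmem65, a protein of the inner mitochondrial membrane, had 36.5 and 37.9 CPM with RANKL and acetate, 69 and 64.1 CPM with RANKL and 65.7 and 59.9 CPM at day 0 (log2 fold change over day 0 -0.76 ± 0.08, adjusted p = 7.7e-10). Gpr183, the oxysterol receptor that guides immune cells and osteoclast precursors, had 28.8 and 33.2 CPM with RANKL and acetate, 45.7 and 47.9 CPM with RANKL and 46.7 and 52.4 CPM at day 0. Slc29a3, a lysosomal nucleoside transporter, had 34.6 and 32.2 CPM with RANKL and acetate, 57.5 and 55.5 CPM with RANKL and 51.6 and 53.6 CPM at day 0. In all 3 the acetate libraries were the lowest of the 6, which the rule of the set largely fixes. Among members of the set picked after their values were seen, Atp6v1d, a subunit of the proton pump, fell 1.35-fold and Syk, the kinase downstream of immune co-receptors, 1.24-fold.

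Part of the set consists of copies that share sequence with other genes. Pseudogenes made up 42 of the 193 higher genes (21.8%) and 2 of the 155 lower genes (1.29%), against 319 of the 12224 tested (2.61%), 144 of all genes called higher (3.89%) and 24 of all called lower (0.645%). Of those 42, 13 are named as copies of ribosomal protein genes. The mitochondrial genes mt-Co2, mt-Co3, mt-Atp6 and mt-Rnr2 met the rule upward, mt-Co2 with a log2 fold change of 0.60 ± 0.06, while the unprocessed pseudogene Gm28437 (chr1:24613189-24613971) met it downward at -2.12 ± 0.08. Such genes can share reads with close copies, and how the reads were divided was not tested, so these members are uncertain.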

How the data were processed

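Per the labels' protocols, a miRNeasy kit with DNase yielded the RNA and a SMARTer kit for mRNA-seq the libraries. Reads were trimmed with Trimmomatic 0.39, mapped with STAR to GRCm38 (mm10) and quantified per gene with RSEM 1.3.1, and DESeq2 1.26.0 is named, per the submitters' processing notes. The expected counts and the TPM values per gene are those the authors deposited. Neither the annotation nor the strand setting of the counting is given in the sources used here. Expected counts were rounded to whole numbers (91.4% of nonzero values lay within 0.005 of one).

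All 6 libraries entered 1 fit with edgeR 4.0.16 in R 4.3.3 (TMM scaling, filterByExpr, quasi-likelihood test with no replicate term, Benjamini-Hochberg adjustment over 12224 genes, threshold 0.05), and differences between groups were read as contrasts. CPM use TMM-scaled totals. Values after ± were worked back from the F statistic of the quasi-likelihood test, and the 95% intervals of log2 fold changes rest on them. Both can be too narrow for large changes. With 2 libraries against 2, an exact permutation test of a single gene cannot go below p = 0.333. Counting intervals (95%, exact) and floors of 3 counts over a group cover counting error only. Coordinates and gene types come from GENCODE M21 (98.8% of gene IDs matched) and promoters from RefSeq. Replicate numbers did not pair the libraries (correlations of deviations -0.01, -0.0213 and -0.0384).

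The members, the gene lists and the tests were chosen with earlier results of these data known. Genes named were the 15 largest rises and falls at 10 CPM or more, and 12 of each among genes changed with RANKL and acetate only. Both rankings took only genes whose RANKL with acetate and day 0 libraries did not overlap. Also named were the 10 with the highest TPM and a panel of osteoclast and macrophage genes. Per list, as many as 4 members were named by smallest adjusted p. Other list members were named for their known role after their values were seen. The alternatives were other scalings and filters, DESeq2 1.42.0, limma 3.58.1 on log2 TPM, a fit of the compared libraries alone, a fold threshold, a replicate block and leaving out each library. The main fit and the rule for genes changed with RANKL and acetate only were tested on simulated counts. The motif search was not tested in this way. A few genes are not reported here.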

Additional observations from a re-analysis of the deposited data

How the results depend on the processing

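The count of genes that differed between RANKL with acetate and day 0 was 7419, and ran from 5128 to 7474 over all alternatives tried. The lowest came from testing against a fold of 1.2, with 2452 genes higher. With the replicate block 7371 genes were called (3669 higher, 3702 lower), and 340 changed with RANKL and acetate only, 328 of them shared with the 348. Upper-quartile scaling moved the median log2 fold change of all genes to 0.054 and the higher share of called genes to 54.2%.

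The set of genes changed with RANKL and acetate only moved most often. It held 204 genes with DESeq2 (74 lower), 185 on log2(TPM + 0.1) (106 higher, 79 lower), 195 on log2(TPM + 1) (117 higher, 78 lower), and 178 when the 95% interval of RANKL minus day 0 had to lie within a fold of 1.2 (90 higher, 88 lower). Of these, 163, 121, 127 and 150 were shared with the 348. With limma-voom the set held 354 genes, 332 of them shared. When the unadjusted edgeR p of RANKL against day 0 had to be at least 0.05, it held 332 genes. The interval rule took the place of not being called with RANKL, so it also let in genes outside the 348. For the other settings the cause was not tested.

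Leaving out 1 library at a time gave 245 to 354 genes changed with RANKL and acetate only (137 to 193 higher, 107 to 161 lower), of which 195 to 263 were shared with the 348, and 6541 to 7346 genes called (3249 to 3644 higher, 3292 to 3702 lower). A lone library was assumed to vary like those of the other groups. The balance of called genes did turn, with 4050 higher and 3424 lower under upper-quartile scaling and 3749 and 3685 with no low-count filter, and the median log2 fold change was -0.00947 and -0.00806 on log2(TPM + 0.1) and log2(TPM + 1). Of the 218 genes named by rule (216 of them called), 211 had the same call, and none turned its direction, under every alternative in which they were tested, the fold threshold aside. The exceptions were Cxcr3, mt-Co1, mt-Atp8, Ap5s1, Ndrg1, Ap4s1 and H2-DMb1. Ap4s1 lost its call without RANKL and acetate replicate 1 (log2 fold change -0.47) or day 0 replicate 2 (-0.46), H2-DMb1 without day 0 replicate 2 (-0.55), Cxcr3 without replicate 2 of either group (-0.73 and -0.67), mt-Co1 likewise (-0.044 and -0.039) and mt-Atp8 without replicate 1 of either group (0.33 and 0.22). The panel of osteoclast and macrophage genes had 18 higher and 12 lower in each of the 16 alternatives run on it. Genes of a few counts, such as Cdh1, Ctgf and Cxcl9, are limited by depth.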
